A study of Mus musculus with 8 samples.

Results

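Regions of the mouse genome with a methylation peak in adult intestinal stem cells and in no other profiled cell population were collected from 8 peak lists. All lists were merged wherever peaks shared at least 1 bp, on the 19 autosomes. A region was kept when both stem cell libraries had a peak in it and none of the other 6 libraries did. This gave 3140 stem-cell-only regions, 0.666% of the 471333 autosomal regions and 2.10% of the 149395 regions called in both stem cell libraries. The regions were chosen by the peak calls of all 8 libraries, so their peak strength and their absence elsewhere are descriptions and carry no test.

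The libraries came from 4 groups of sorted small intestinal epithelium, 2 biological replicates each, from mice of a mixed C57BL/6 and CD1 background. Embryonic epithelium at E12.5 and at E14.5 (embryonic days) was sorted as living cells that carried EpCAM, an epithelial surface protein, and neither CD31 (endothelium) nor CD45 (leukocytes). Both adult populations were taken from Lgr5EGFP-Cre-ERT males at postnatal day 60, so enterocytes carried the reporter allele too. Intestinal stem cells (ISC) were those with high EGFP from the Lgr5 reporter, and the group therefore holds only stem cells in which that reporter was strongly expressed. Enterocytes were sorted by the EpCAM, CD31 and CD45 gate, which has no marker to part absorptive from secretory epithelial cells. In MBD sequencing, methylated DNA fragments are captured on a protein domain that binds methylated CpG sites, here from 1 µg of DNA per replicate, and sequenced. Peaks give no expression values, so the sorted cell types could not be checked against their marker genes here.

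Stem cells marked by Lgr5, a receptor for R-spondins and a target of Wnt signalling, lie at the base of the crypts and renew the whole epithelium, and enterocytes are their main absorptive progeny. Methyl groups on cytosines of CpG sites are copied to the daughter strand by Dnmt1 at each division, set anew by Dnmt3a and Dnmt3b and oxidised by Tet enzymes on the way to their removal. An MBD pull-down collects fragments by how many methylated CpGs they carry, so a weak peak can mark a stretch with few methylated CpGs or with methylation in part of the cells, and the method cannot tell these apart.

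The libraries held 31438314 to 55442400 tags and 84990 to 338262 peaks. The ISC lists had 203322 and 282490 peaks, the enterocyte lists 164157 and 232179, the E14.5 lists 317772 and 338262, and the E12.5 lists 100314 and 84990. Each list was called on its own against its own background, so a missing peak means that the tags in a library did not pass the cutoff, and does not mean that methylation was absent. The median peak was 272 bp long in E14.5 replicate 2 and 849 bp in enterocyte replicate 1, the extremes of the 8 lists.

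Most regions methylated in stem cells were called in other cells as well. Of the 149395 ISC regions, 18321 (12.3%) had no peak in either enterocyte library, 3601 (2.41%) had no peak in the E14.5 libraries either, and removing those with an E12.5 peak left the 3140. At the other end, 24525 ISC regions (16.4%) had a peak in all 6 other libraries. The stem-cell-only set is thus the small end of a gradual series, with 8629 ISC regions called in exactly 1 other library, 16460 in 2, 24699 in 3, 37685 in 4 and 34257 in 5. Single libraries had many more peaks of their own, with 10566 regions called in ISC replicate 1 alone and 18617 in ISC replicate 2 alone.

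The stem-cell-only peaks were weak. Scores are given as percentiles within a library's own list, and the strength of a region is the lower percentile of its 2 ISC peaks. The median strength was 14.9 for stem-cell-only regions and 47.3 over all ISC regions. Both ISC peaks were in the top 50% of their lists at 127 of the 3140 regions (4.04%), against 47.2% of all ISC regions, and in the top 25% at 2 regions. Of the ISC regions with a strength under 10, 1147 of 16193 (7.08%) were stem-cell-only, and the share was lower in every stronger class, with 1 of 13857 between percentiles 80 and 90 and 0 of 12384 above 90.

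**Figure D1:**
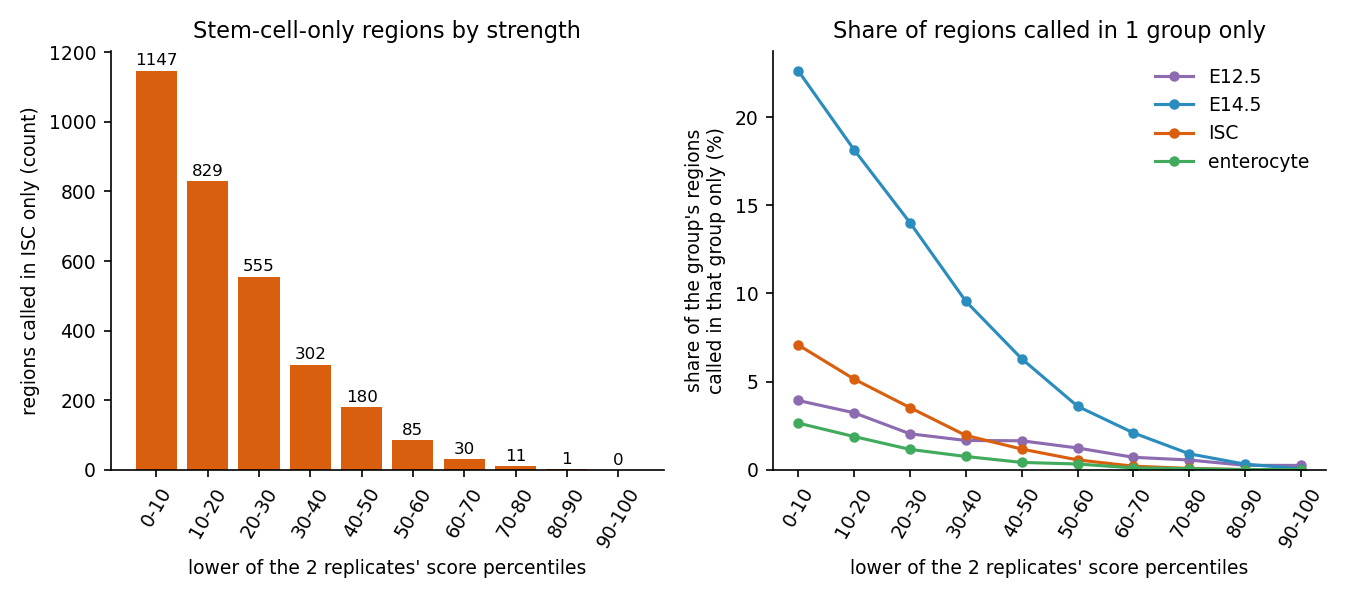
Left, number of stem-cell-only regions in classes of strength, the lower of the 2 ISC replicates' score percentiles within their lists (x axis); right, the share in percent of a group's regions that were called in that group only, in the same classes, for the 4 groups. The bars go from 1147 regions in the weakest class to 0 in the strongest, and the shares of all 4 groups are highest in the weakest class.

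Regions called in a single group were mostly weak in the other 3 groups too. As a share of what both libraries of a group had called, 17156 regions (8.28%) were E14.5-only, 620 (1.65%) E12.5-only and 1009 (0.767%) enterocyte-only, which are 3.64%, 0.132% and 0.214% of all autosomal regions. The median strength was 18.3 in the E14.5-only, 21.8 in the E12.5-only and 14.8 in the enterocyte-only regions, beside the 14.9 of the stem-cell-only regions. Stem-cell-only regions had the lowest share in the top 50% of both lists, 4.04%, against 6.74% for enterocyte-only, 8.53% for E14.5-only and 17.9% for E12.5-only regions. The lists differ in length and were thresholded separately, and this ordering was not tested. With every list held to its 84990 highest-scoring peaks, the stem-cell-only share was 2.74%, the lowest of the 4 groups, with 3.26% for enterocytes, 3.91% for E14.5 and 12.1% for E12.5, whereas with full lists it was above those of enterocytes and E12.5. Ranked by fold in place of score, lists of the same length gave 6.18% for stem cells, above the 5.08% of enterocytes and below the 8.52% of E14.5 and 22.8% of E12.5, so the order depended on the ranking.

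In tags, a stem-cell-only region held a median of 23 tags in ISC replicate 1 and 25 in replicate 2, with the middle of the distribution (25th to 75th percentile) from 20 to 29 and from 21 to 32. Counting error alone gives a count of 23 tags an exact 95% Poisson interval of 14.6 to 34.5, and one of 25 tags an interval of 16.2 to 36.9. Over all ISC regions the medians were 35 and 43 tags. The authors' fold enrichment over the local background had a median of 6.22 and 6.11 in the stem-cell-only regions and of 6.22 and 6.68 in all ISC regions. The fold thus set them apart from the rest less than the number of tags did. Their regions had a median length of 445 bp, against 856 bp over all ISC regions. Regions called in more libraries are merged from more peaks and are longer by construction.

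The rule asks for a peak of both stem cell replicates in a region, so how closely the 2 peaks lie together follows in part from the rule and is no sign of agreement between the replicates. Both libraries had a single peak at 3139 of the 3140 regions. The bases shared by both peaks made up 80.9% of the region in the median, against 59.2% over all ISC regions, and the peak summits lay 54 bp apart in the median, against 77 bp. Most ISC regions also take in peaks of other libraries, which lengthen the region, so their shared part is lower in part by construction. Scaled to library size (RPM, tags per 1000000 tags of the library), the levels of the replicates were within 1.5 times of each other at 2787 regions (88.8%), against 71.2% of all ISC regions. Replicate 2 had the higher RPM at 64.8% of the stem-cell-only regions and at 76.3% of all ISC regions. Across the 3140 regions, which are not independent replicates, Spearman's rho between the replicates was lower than over all ISC regions, 0.589 against 0.751 for RPM and 0.0794 against 0.517 for the score. The stem-cell-only regions also spanned a narrower range of RPM. In replicate 1 the 5th to 95th percentile was 0.555 to 1.42, against 0.617 to 2.84 over all ISC regions. Both rho and the share within 1.5 times depend on that range.

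How the ISC tag level stood to the cutoffs of the other libraries was read from peaks near each cutoff, those with a score under 52 where the caller's limit is 50. Such peaks held a median of 0.617 and 0.636 RPM in the ISC libraries. The level was 0.808 RPM in enterocyte replicate 1 and 0.664 in enterocyte replicate 2, 0.579 and 0.373 in the E14.5 and 0.597 and 0.559 in the E12.5 libraries. Near their cutoffs, enterocyte peaks thus held more RPM per peak in the median than stem cell peaks. The 10th to 90th percentile ranges overlapped, and the enterocyte peaks were also longer. The stem-cell-only regions held a median of 0.709 RPM in ISC replicate 1 and 0.795 in replicate 2, both below the level of enterocyte replicate 1.

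Only part of the stem-cell-only regions exceeded these levels in both ISC libraries. For E14.5 replicate 2 all 3140 did so, as did all ISC regions. For E14.5 replicate 1 it was 2648 (84.3%), against 96.4% of all ISC regions, and for E12.5 replicates 1 and 2 it was 2425 (77.2%) and 2764 (88.0%), against 94.1% and 97.1%. For enterocyte replicate 2 it was 1754 (55.9%), against 87.0%, and for enterocyte replicate 1 it was 860 (27.4%), against 69.3%. The same 860 exceeded the levels of all 6 other libraries, against the same 69.3% of all ISC regions. The other 2280 regions were, in at least 1 ISC library, at or below the near-cutoff median of enterocyte replicate 1. Peaks near the cutoff of enterocyte replicates 1 and 2 were longer (medians 655 and 459 bp, against 359 and 373 bp in ISC). The levels are per peak and not per base, so they do not order the libraries by tag density. The part of cutoff and peak width in the calls was not tested.

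**Figure D2:**
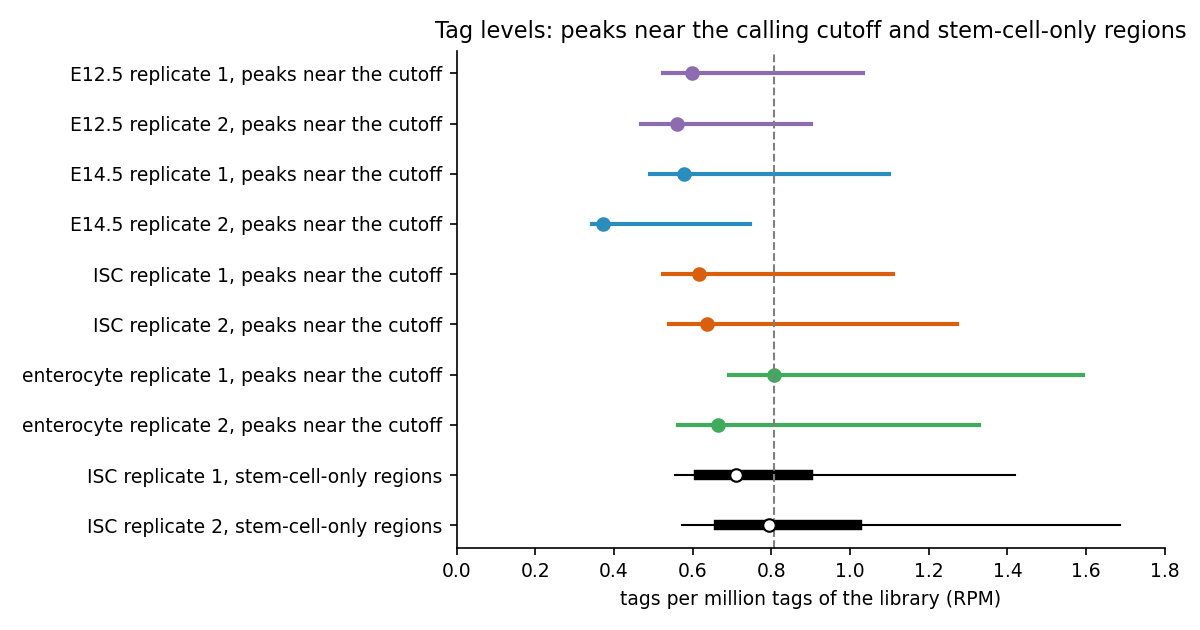
Tags scaled to the library total (x axis, RPM) for peaks with a score under 52 in each library (coloured point, median; line, 10th to 90th percentile) and for the 3140 stem-cell-only regions in the ISC libraries (open point, median; thick line, 25th to 75th percentile; thin line, 5th to 95th). The dashed line marks the highest near-cutoff median of the other 6 libraries, 0.808 RPM in enterocyte replicate 1, which lies above the stem-cell-only medians of 0.709 and 0.795.

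The strongest stem-cell-only regions were moderate peaks of 28 to 88 tags, with a length of 397 to 1227 bp and on 9 chromosomes. Positions are in mm9. The first by strength, at chr8:69137433-69137999, held 36 and 40 tags in ISC replicates 1 and 2, at a fold of 6.79 and 10.01, and was at the 80.3 percentile or higher in both lists. The second, at chr2:3961293-3961764, held 35 tags in each replicate at a fold of 9.05 and 8.89. These were the 2 regions in the top 25% of both ISC lists, and the nearest peak of another library lay 1696 bp from the first (enterocyte replicate 2) and 475 bp from the second (E14.5 replicate 2). The nearest enterocyte peak to the second was 20166 bp away.

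The next in rank also had peaks of other cells nearby. The third, at chr2:129191809-129192247, held 28 and 34 tags, and a peak of 35 tags in enterocyte replicate 1 lay 30 bp from its edge, a gap shorter than a sheared fragment. The fourth, at chr3:30106606-30107205, held 42 and 53 tags, and peaks of enterocytes, E14.5 and E12.5 lay 1031, 1165 and 1183 bp away. The fifth, at chr7:89879596-89880220, held 41 and 38 tags. Both replicates of these 3 regions were above the near-cutoff level of every other library.

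The sixth region, at chr4:25794893-25795289, held 28 and 32 tags and had the highest fold of the 10, 10.74 in replicate 1. The seventh, at chr5:74601686-74602912, held the most tags of the 10, 75 and 88, at the lowest fold, 3.91 and 4.69. The nearest peak of another library, of 106 tags in enterocyte replicate 2, was 3611 bp away, the farthest among the 10. The last 3 of the 10 were at chr15:76853892-76854502 with 36 and 32 tags, at chr16:18232963-18233495 with 34 and 42 tags, and at chr17:33663765-33664401 with 42 and 46 tags. At 8 of the 10 regions replicate 2 had the higher RPM, the nearest peak of another library was an enterocyte peak at 5 and an E14.5 peak at 5, and all 10 exceeded the near-cutoff levels of the other 6 libraries. These 10 were picked for high scores, so their tag levels are not free of that choice.

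**Figure D3:**
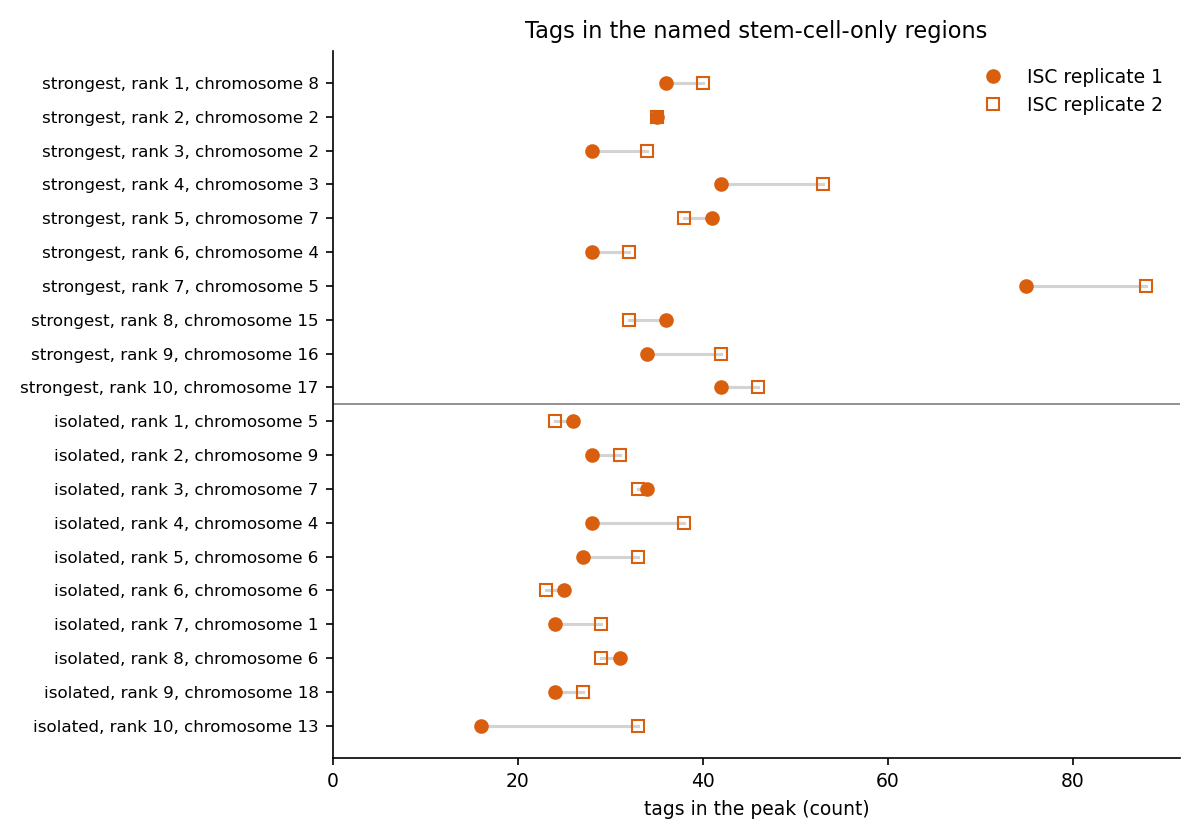
Tags in the peak (x axis) in ISC replicate 1 (filled circles) and replicate 2 (open squares) for the 10 strongest stem-cell-only regions and for the 10 strongest with no peak of another library within 5 kb, each named by rank and chromosome. The other 6 libraries had no peak in any of them. The isolated regions hold 16 to 38 tags, and the strongest regions 28 to 88.

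Stem-cell-only regions did not stand in empty stretches of the genome. A peak of at least 1 other library lay within 500 bp of 854 regions (27.2%), within 1000 bp of 45.8% and within 5000 bp of 91.0%. For all ISC regions the shares were 27.0%, 46.3% and 92.9%, counting only peaks outside the region. The distances given here all leave out peaks that overlap the region. Only 2.10% of all ISC regions had no overlapping peak of another library. Their values therefore describe the nearest peak outside a region, and not how near the nearest peak was. The median distance to the nearest peak of another library was 1124.5 bp, against 1114 bp. By library, the median distance to the nearest peak was 1853.5 and 1980.5 bp for E14.5 replicates 1 and 2, against 1891 and 1909 bp over all ISC regions. It was 3276.5 and 2371 bp for enterocyte replicates 1 and 2, against 3806 and 2545 bp, and 5969 and 6838.5 bp for E12.5, against 5965 and 6937 bp. The nearest peak of another library belonged to enterocyte replicate 1 at 30.0% of the stem-cell-only regions and 28.3% of all ISC regions, and to enterocyte replicate 2 at 22.1% and 22.3%. For E14.5 replicate 1 these shares were 23.9% and 23.3%, and for E14.5 replicate 2 they were 13.7% and 15.0%. None of these differences was tested.

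A group of 284 regions (9.04%) had no peak of another library within 5 kb, and 95 had none within 10 kb. Of all ISC regions, 7.08% had none within 5 kb when only peaks outside the region were counted. Of those, 2.68% were the stem-cell-only regions, and all others held a peak of another library inside. The strongest of the 284, at chr5:46455114-46455459, held 26 and 24 tags. The second, at chr9:71829450-71829923, held 28 and 31 tags at a fold of 9.61 and 7.78, and the nearest peaks of enterocytes, E14.5 and E12.5 were 17371, 33315 and 33365 bp away. The nearest other ISC peak was 17401 bp away. The third, at chr7:59057226-59057783, held 34 and 33 tags with summits 19 bp apart, and the nearest peak of another library, of 19 tags in E14.5 replicate 1, lay 8077 bp away.

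The fourth isolated region, at chr4:19323146-19323774, held 28 and 38 tags and was 12851 bp from the nearest peak of another library. On chromosome 6, 3 regions followed among the next, chr6:47807018-47807509 with 27 and 33 tags, chr6:22316169-22316541 with 25 and 23, and chr6:141330704-141331215 with 31 and 29. The remaining ones were at chr1:162724083-162724575 with 24 and 29 tags, at chr18:71198808-71199214 with 24 and 27 tags, and at chr13:9833330-9833865 with 16 and 33 tags. The last had the widest gap between the replicates. Of these 10, 5 exceeded the near-cutoff level of every other library in both replicates. Over all stem-cell-only regions, 558 (17.8%) did so with no peak of another library within 500 bp, 339 (10.8%) with none within 1000 bp and 7 (0.223%) with none within 5000 bp. Over all ISC regions the shares were 49.3%, 35.2% and 3.28%, counting only peaks outside the region. Of those ISC regions 0.758%, 0.644% and 0.143% were stem-cell-only, and all others held a peak of another library inside. The shares over all ISC regions therefore cannot be set against those of the stem-cell-only regions.

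Peaks lying wholly outside the stem-cell-only regions did not enter the rule, and the question was whether their surroundings were also richer in stem cell peaks. Neighbours were not wholly free of the rule. A peak of another library reaching 1 bp into a region removed it, whereas a stem cell peak was merged into it. For each library, the share of stem-cell-only regions with a peak of that library in the 5 kb on either side was divided by the same share over all ISC regions. The latter ran from 37.5% in E12.5 replicate 2 to 83.6% in E14.5 replicate 1, so the highest ratio possible differed between libraries. The ratio was 0.981 and 0.987 in the ISC libraries, from 66.6% against 67.9% in replicate 1 and 79.8% against 80.9% in replicate 2. In replicates 1 and 2 it was 1.03 and 0.993 in enterocytes, 0.981 and 0.967 at E14.5, and 1.02 and 1.06 at E12.5. The ISC ratios averaged 0.984 (n = 2) and lay within the range of the others, which averaged 1.01 ± 0.0355 (SD, n = 6).

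The difference of -0.0259 was smaller than the spread between the other libraries (exact permutation test over 28 assignments, two-sided p = 0.429 as 2 times the smaller one-sided p). Computed in that way the p cannot fall below 0.0714, so it could not have passed 0.05 and carries no verdict. Taken from the absolute difference, a version added after the data were seen that can reach 0.0357, the exact permutation p was 0.393. The 6 other libraries are replicates of 3 groups, which the test took as exchangeable.

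**Figure D4:**
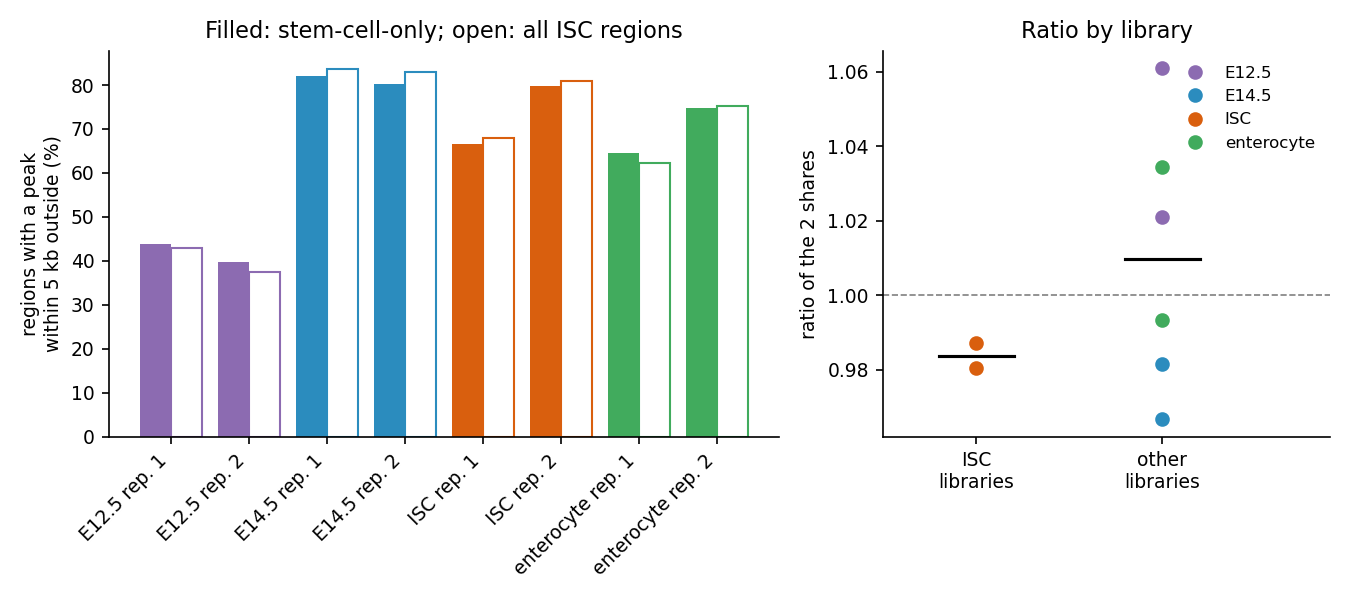
Left, share in percent of regions with a peak of the named library within 5 kb outside the region, for the 3140 stem-cell-only regions (filled bars) and for all 149395 ISC regions (open bars). Right, the ratio of the 2 shares by library, with horizontal bars at the means; the axis does not start at 0. The ISC points, 0.981 and 0.987, lie inside the range of the other libraries, 0.967 to 1.06.

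Stem-cell-only regions were spread over all autosomes. Their share of the ISC regions ranged from 1.69% on chromosome 12 (111 regions) to 2.57% on chromosome 6 (218 regions), around the overall 2.10%. Along the chromosomes, each divided into 10 parts of equal length, the share was 2.02% to 2.26% in the first 9 parts and 1.76% in the last (377 of 21469). The median strength of the ISC regions in that last part was 48.4, and 45.6 to 48.0 in the others. None of these differences was tested, since neighbouring regions are not independent.

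**Figure D5:**
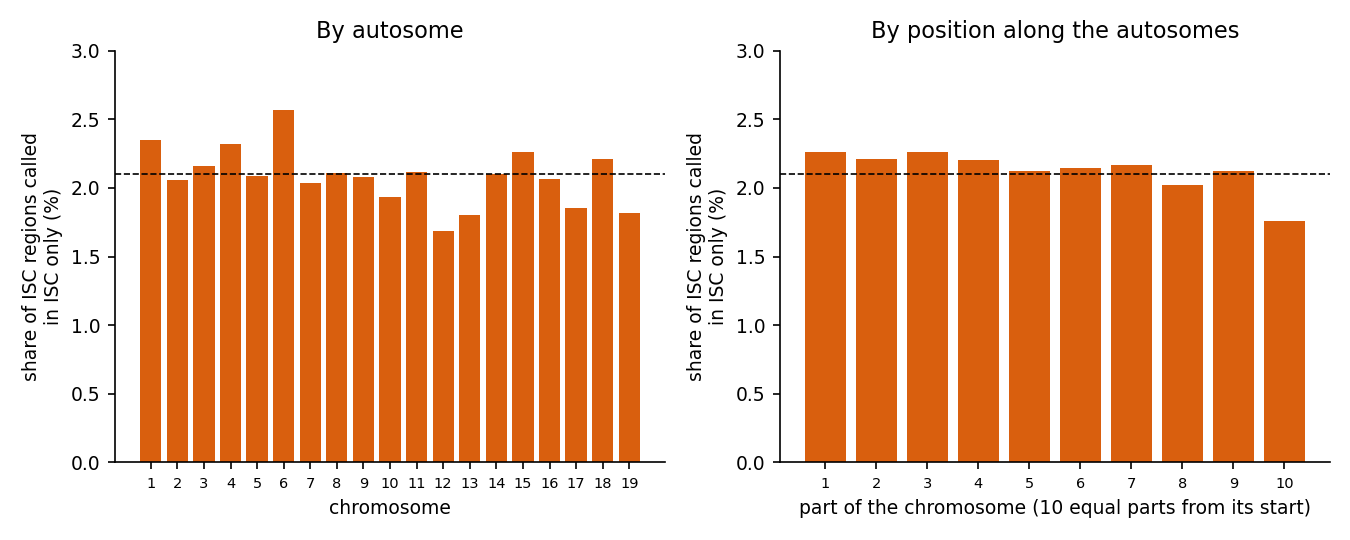
Share in percent of the regions called in both ISC libraries that were stem-cell-only, by autosome (left) and by position in 10 equal parts from the chromosome start (right), with the overall share of 2.10% as a dashed line. Chromosome 6 has the highest bar (2.57%), chromosome 12 the lowest (1.69%), and the last part lies at 1.76%.

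They also formed no long runs, and whether they were more clustered than the ISC regions as a whole was not tested. The median distance from a stem-cell-only region to the next was 205 kb, and 102 regions (3.25%) had another within 10 kb. Over all merged regions, 2 in a row was the longest run, found 19 times. Counting ISC regions alone, the longest runs were of 3, at chr14:63835886-63878882 (18 to 30 tags) and at chr4:97800683-97848621 (19 to 29 tags). Of the 2405 windows of 1 Mb with an ISC region, 852 (35.4%) held no stem-cell-only region and 1 window held the most, 8.

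That window, chr6:94000001-95000000, had 8 stem-cell-only regions among 99 ISC regions. Their peaks were weak, with 18 to 33 tags and a median strength of 5.83, and 1 of the 8 had no other library's peak within 5 kb. The windows chr7:147000001-148000000 and chr14:63000001-64000000 held 7 each, of 73 and 80 ISC regions, with 17 to 38 and 18 to 51 tags, and another 7 windows also held 7.

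The largest tag counts came from long regions of low fold. The longest, at chr5:114201555-114205679, was 4125 bp long and held 214 and 399 tags at a fold of 3.17 and 2.89, and an enterocyte replicate 2 peak of 261 tags lay 764 bp from its edge. The next in length, at chr15:99237341-99240467, held 83 and 243 tags. These exceptions were few, since 51 stem-cell-only regions (1.62%) were longer than 1000 bp, against 36.6% of all ISC regions, and 5 (0.159%) had over 100 tags in both replicates, against 3.38%. They were named after their values were seen.

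Some regions lay inside or outside the rule by a small difference in score. Of the 3140, 637 (20.3%) had a score under 52 in at least 1 ISC library, against 5.62% of all ISC regions. The weakest, at chr10:85399778-85400133, held 19 and 20 tags with a score of 50.00 in replicate 1, exactly the cutoff, and 62.44 in replicate 2. The next, chr4:98561828-98562218 and chr4:153579964-153580463, had their lower score at 50.01 and 50.03, in replicate 2. The last of the 5 weakest were at chr18:78272737-78273156 (29 and 25 tags) and at chr1:162971651-162972030 (17 and 19 tags).

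Outside the rule were the 8629 ISC regions called in exactly 1 other library. Their median strength in ISC was 19.2, against 14.9 for stem-cell-only regions, and their other peak was at a median percentile of 34.6 in its own list. At 1216 of them (14.1%) that peak was in the lowest 10% of its list. The other library was E14.5 replicate 1 at 2935, E14.5 replicate 2 at 2627 and enterocyte replicate 2 at 2025, and enterocyte replicate 1 at 636 and the E12.5 libraries at 225 and 181. The region chr3:38361631-38362123 was picked for the lowest score of its other peak and, among ties, for the highest strength in ISC. It held 28 and 26 tags in ISC, with a strength of 44.2. It was kept out by 22 tags at a score of 50.00 in enterocyte replicate 2.

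Which regions were stem-cell-only depended on the depth to which the lists were read. With all lists held to 84990 peaks, 1345 regions were called in ISC only, and 1320 of them (98.1%) overlapped a peak of another library in the full lists, of 3 other libraries in the median. That share was near the one over all 149395 ISC regions, of which 2.10% had no peak of another library in the full lists. Of the 3140 regions, 25 were found among the 1345. A list cut by score drops its weak peaks first, and the stem-cell-only peaks were mostly weak. Leaving out 1 library, E14.5 replicate 1, raised the count to 6099, and leaving out E14.5 replicate 2 or enterocyte replicate 2 raised it to 5768 and 5223. Without ISC replicate 1, the regions called in replicate 2 and no other library numbered 21826, and without ISC replicate 2, those of replicate 1 numbered 13788.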

How the data were processed

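MBD sequencing peak lists of 8 libraries (2 per group) were used as deposited. The labels name no batch. DNA (1 µg) was fragmented to 150 to 250 bp and enriched with a MethylMiner kit, per the labels' protocols. The build was mm9 and the tools listed were Bowtie 1.1.2, SAMtools 1.2 and bcl2fastq 1.8.4, per the submitters' processing notes. Per the file headers, MACS 1.4.2 called peaks in each library alone, without a control, at p 1e-05, with a regional background of 10000 bp and a tag size of 180 bp. Without a control, copy number and repeats can give peaks. Tags per peak are whole-number counts as the authors deposited them, given only where a peak was called and not tested as counts. The score is the caller's negative log10 p times 10, and the fold enrichment is the ratio of a peak to its local background, as the authors deposited them.

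Lists were merged at 1 bp overlap (Python 3.11.15, pandas 2.3.3, numpy 2.4.6, scipy 1.17.1). RPM are tags divided by the library total in the headers. Distances are differences between facing edges, to peaks lying outside the region only. The members and lists were chosen with earlier results of these data known. Regions were named by the rule of the 10 strongest, the 10 strongest without another library's peak within 5 kb, the 3 densest 1 Mb windows and the 5 weakest. The region named outside the rule was picked for the lowest score of its other peak, with ties broken by the highest strength in ISC. The comparison with near-cutoff levels was added after the data were seen. Merging was checked with simulated peaks planted into the lists, and distances by a direct recount on the lists. The permutation test was checked on made-up values. With 2 libraries per group a two-sided permutation test between groups cannot fall below p = 0.33. The gene table at hand is of another build (GRCm38.p6), so genes, marker lists and sequence were not analysed here.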

Additional observations from a re-analysis of the deposited data

How the results depend on the processing

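The count of 3140 stem-cell-only regions and their share of ISC regions depended on the lists. With lists of equal length 1345 regions (2.74%) were called in ISC only, and 25 of the 3140 were among them. With the 50% highest-scoring peaks of each list it was 2042 (2.90%), and 126 of the 3140 were among them. With that limit on the ISC lists alone it was 126 (0.179%), since few of the stem-cell-only peaks were strong. Other choices kept the count within 1.5 times, with the share at 1.60% when merging within 500 bp, 3.80% when presence needed 50% of a region covered and 2.95% with 100 bp either side of summits. Chosen after the data were seen, lists of equal length ranked by fold gave a share of 6.18% (2289 regions, with 297 of the 3140 among them). Counting a peak of another library within 500 bp as presence, also chosen then, gave 1.53% (2286 regions). Leaving out 1 library gave 3324 to 21826 regions and a share of 2.22% to 8.13%, the highest without an ISC replicate. The 2 regions in the top 25% of both ISC lists became 355 with equal lists, 137 with the 50% highest-scoring peaks, 130 with summits, 12 under 50% cover, 1 when merging within 500 bp, and 2 to 171 when leaving out a library (9 and 8 without E14.5 replicates 1 and 2, 11 and 32 without enterocyte replicates 1 and 2, 163 and 171 without ISC replicates 1 and 2). The 284 isolated regions became 432 with the 50% highest-scoring peaks and 7 with that limit on ISC alone, and 313 to 2454 when leaving out a library (733 and 610 without E14.5 replicates 1 and 2, 476 without enterocyte replicate 2, 2454 and 1629 without ISC replicates 1 and 2). The difference in flank ratio changed sign with flanks of 10 kb (0.000636, exact permutation p = 1.00), and kept it in the other settings, from -0.0368 to -0.0118 when leaving out a library. With libraries exchanged only within a replicate number (replicate block, added after the data were seen) it was -0.0259, exact permutation p = 0.375, and with the two-sided p taken from the absolute difference 0.393 (also added then). The counts of regions come from no test, so no paired analysis of them was possible.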
